A study of Mus musculus with 4 samples.

Results

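Gene expression in the cochleovestibular ganglion of the library with the genotype label Isl1CKO was compared with that of the library with the genotype label control, across every gene row of both. The comparison used these 2 of the 4 samples in the series, chosen by genotype label alone. The ganglion, the group of newly formed sensory neurons next to the developing inner ear, was dissected from mouse embryos at embryonic day 11.5 and frozen in liquid nitrogen, and strand-specific libraries were made from total RNA. The labels name the sampled cells CVG neurons. Isl1CKO is read here as a conditional knockout of Isl1, and the control carries no further allele in the labels. The other 2 samples, Pou4f1KO (knockout of Pou4f1) and DKO (both labels together), give a second comparison of the same label, DKO over Pou4f1KO, which has no library in common with the first. Not given are the Cre driver, the deleted exons, the strain, the control's genotype in detail and the number of embryos in a library. Each genotype was 1 library, so there is no spread between replicates, no test was possible and every difference is given as a size.

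ISL1 is a LIM-homeodomain transcription factor: its homeodomain binds DNA around a TAAT core, and its LIM domains bind partner proteins such as LDB1. It is made by nearly all young sensory neurons and by motor neurons, and is known as a factor that drives sensory neuron programmes while keeping genes of other neuron types silent. The cochleovestibular ganglion gives rise to the spiral ganglion neurons of hearing and the vestibular neurons of balance. Its neurons delaminate from the otic epithelium, so a dissected ganglion lies against epithelium, mesenchyme, vessels and hindbrain.

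Levels are in TPM, a share of transcripts that is scaled for gene length and has the same total in every library, and 4 values in a row are always control, Isl1CKO, Pou4f1KO and DKO in that order. Isl1 itself stood at 450.4, 854, 339.6 and 579 TPM. It was higher, not lower, in both libraries that carry its knockout label, with a log2 ratio of 0.92 over control and 0.77 in the Pou4f1KO background. A value for the whole gene sums reads over all exons and need not cover the deleted part, so it does not check the label. Genotype names below therefore stand for the library labelled so, and no direction below has been checked against Isl1 itself. Pou4f1, the POU-homeodomain factor of sensory neurons, was at 146, 188, 16.6 and 14.6 TPM. The genes next to Isl1 on chromosome 13, Pelo (29.2 TPM in control and 25.8 in Isl1CKO) and Parp8 (7.42 TPM in control and 7.34 in Isl1CKO), had log2 ratios of −0.17 and −0.01.

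Coverage per unit of FPKM, which scales with sequencing depth, was 16.6, 13.6, 16.6 and 16.1, so the Isl1CKO library was the shallowest. Mean coverage of a gene with 1 TPM was 4.95 in Isl1CKO and 5.93 in control. The defining markers of sensory neurons were all measured in both libraries: the 12 fixed markers summed to 6818 TPM in control and 8199 in Isl1CKO, with Tubb3, the neuronal tubulin, at 2636 TPM in control and 3017 in Isl1CKO. Markers of neighbouring cells were present as well. The 10 otic epithelium markers summed to 484 and 377 TPM, the 8 mesenchyme markers to 159.6 and 103 TPM, the 4 endothelial markers to 53.3 and 38.0 TPM and the 4 erythroid markers to 5815 and 5216 TPM. The 12 hindbrain and neural tube markers summed to 35.9 and 68.7 TPM. Among the 5 that were compared, Lhx1 (3.05 and 28.8 TPM) and Lhx2 (4.03 and 12.2 TPM) were past 2-fold, and the higher sum lay in these. Hoxb2 (8.5 and 10.8 TPM) was higher, and Hoxa2 (15.7 and 13.2 TPM) and Pax3 (1.995 and 1.39 TPM) were lower. The motor and visceral neuron markers summed to 28.0 and 33.4 TPM. In this bulk tissue, fewer cells of a type and less RNA per cell cannot be told apart.

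The promoters of 5 genes past 2-fold, chosen after their values were seen, are shown first, because ISL1 binds DNA directly. Each is the stretch of 250 bases before the start of transcription, 5′ to 3′ along the gene's strand, from RefSeq on GRCm38.p6. Capitals mark the homeodomain core TAAT on either strand, so TAAT or ATTA. Lhx1 (chr11:84525535-84525784, minus strand), Prdm8 (chr5:98180619-98180868, plus), Tle2 (chr10:81575037-81575286, plus), Gata3 (chr2:9878601-9878850, minus) and Gnat3 (chr5:17962320-17962569, plus) read as follows.
Lhx1: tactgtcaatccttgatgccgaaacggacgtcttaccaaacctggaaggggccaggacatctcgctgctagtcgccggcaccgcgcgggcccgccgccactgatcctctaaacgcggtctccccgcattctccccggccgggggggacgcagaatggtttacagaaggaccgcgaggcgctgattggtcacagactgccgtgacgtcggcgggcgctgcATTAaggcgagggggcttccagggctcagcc
Prdm8: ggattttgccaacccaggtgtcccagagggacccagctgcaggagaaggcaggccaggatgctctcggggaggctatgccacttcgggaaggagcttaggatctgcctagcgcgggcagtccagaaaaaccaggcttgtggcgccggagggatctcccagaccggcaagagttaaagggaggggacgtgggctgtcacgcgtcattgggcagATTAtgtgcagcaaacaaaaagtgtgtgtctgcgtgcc
Tle2: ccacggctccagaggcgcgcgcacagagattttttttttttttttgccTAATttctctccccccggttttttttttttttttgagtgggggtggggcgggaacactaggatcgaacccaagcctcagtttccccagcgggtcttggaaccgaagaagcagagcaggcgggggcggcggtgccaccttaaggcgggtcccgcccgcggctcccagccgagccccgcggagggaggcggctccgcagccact
Gata3: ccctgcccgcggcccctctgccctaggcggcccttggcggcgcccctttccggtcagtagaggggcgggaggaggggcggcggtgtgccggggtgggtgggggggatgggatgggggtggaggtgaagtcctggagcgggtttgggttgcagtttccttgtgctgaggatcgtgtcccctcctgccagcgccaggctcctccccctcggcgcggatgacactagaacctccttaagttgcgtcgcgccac
Gnat3: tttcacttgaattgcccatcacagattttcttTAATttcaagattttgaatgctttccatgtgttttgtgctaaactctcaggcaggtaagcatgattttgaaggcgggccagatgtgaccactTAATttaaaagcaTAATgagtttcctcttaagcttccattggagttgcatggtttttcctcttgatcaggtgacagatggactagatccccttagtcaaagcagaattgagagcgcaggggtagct
The first 3 belong to genes higher in Isl1CKO and hold 1 match each, at 64.8%, 59.6% and 61.6% G and C. The Gata3 window holds 0 matches at 70.0% G and C, and the Gnat3 window holds 3 at 40.8%. Of all 32851 such windows in RefSeq 54.9% hold a match, and of the first window of 11282 compared genes 38.9%. A match was present in 21 of 41 windows of genes at least 2-fold higher (51.2%) and in 35 of 51 windows of genes at least 2-fold lower (68.6%). The lower genes' windows were also poorer in G and C (median 54.4%, against 59.6% for the higher and 60% for all compared genes). A match is a description of the letters, and binding was not measured.

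Of 25239 gene symbols, 14688 reached 1 TPM in control or Isl1CKO and were compared. The difference is the log2 ratio of (TPM + 1), Isl1CKO over control, which understates differences of weakly expressed genes, and a size of at least 1 is called 2-fold. By that measure 88 genes were at least 2-fold higher (0.599% of those compared) and 93 at least 2-fold lower (0.633%). At these shares many families below are small enough to hold none, so a count of 0 alone does not set a family apart. The rest lay close together: 92.2% of compared genes had a log2 ratio within 0.5 of 0, and the median was −0.02. Scaling both libraries to equal pan-neuronal genes shifted the split to 70 higher and 121 lower. The plot of ratio against level shows how few genes left the central band above 30 TPM.

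**Figure D1:**
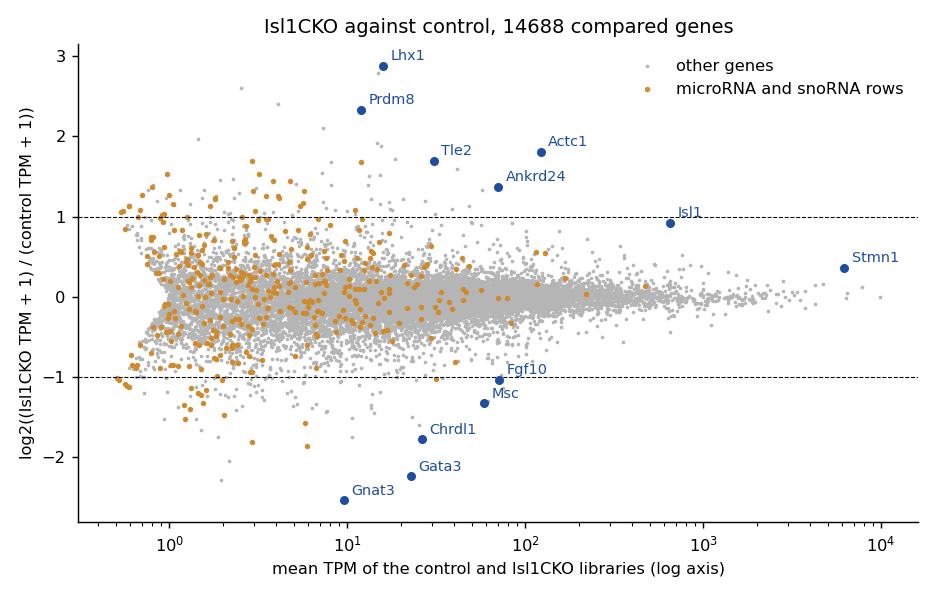
Log2 ratio of Isl1CKO over control (y axis) against the mean TPM of both libraries (x axis, log scale) for 14688 compared genes, with microRNA and snoRNA rows in orange and named genes in blue; dashed lines mark 2-fold. The spread narrows with level, and Lhx1, Prdm8, Actc1, Gata3 and Gnat3 stand outside it.

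Transcription factors of interneurons and a pair of Groucho-type co-repressors were among the largest differences upward. Lhx1, a LIM-homeodomain factor of hindbrain and spinal interneurons, stood at 3.05, 28.8, 9.72 and 18.9 TPM (log2 ratio 2.88). Lhx2, another LIM-homeodomain factor, stood at 4.03, 12.2, 11.5 and 17.3 TPM (1.39). Control was lowest in both genes, and Isl1CKO exceeded it by more than DKO exceeded Pou4f1KO. Prdm8, a histone methyltransferase-family repressor of neuronal development, stood at 3.31, 20.7, 3.45 and 23.9 TPM (2.33), and here both pairs were alike. Bhlhe23, a bHLH factor, stood at 8.06, 28.9, 9.55 and 31.9 TPM (1.72).

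Of 7 compared LIM-homeodomain genes 2 were higher and 0 lower (median −0.15, but 0.94 with FPKM, where fewer members are compared). The remaining members were Isl1, Lmx1a (36.5 TPM in control and 18.1 in Isl1CKO), Isl2 (268 TPM in control and 241 in Isl1CKO), Lhx6 and Lmx1b. The neurogenic bHLH family, which drives the production of neurons, had 3 of 15 members higher and 0 lower (median 0.31). Besides Bhlhe23 these were Neurod2 (6.82, 19.5, 20.6 and 30.4 TPM) and Neurod4 (1.88, 4.91, 5.59 and 3.88 TPM). The close paralog Bhlhe22 lay the other way (59.2, 37.4, 102 and 55.7 TPM), as did Neurog1, the factor that specifies otic neurons (16.3, 10.5, 17.5 and 6.74 TPM). Neurod1, Nhlh1 and Nhlh2, the abundant members, had log2 ratios of 0.34, 0.36 and 0.44. The hindbrain interneuron list, drawn up with these results known, had 5 of 15 compared members higher, all named above or below, and 0 lower, with a median of 0.23 and −0.04 in the second background. Olig3 and Atoh1, factors of dorsal hindbrain progenitors on that list, were too low to compare, with Olig3 at 0.447, 0.799, 13.9 and 0.542 TPM and Atoh1 at 0.191, 0.413, 5.51 and 0.351 TPM. Both were under 1 TPM in control and Isl1CKO and highest in Pou4f1KO.

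The TLE family encodes co-repressors that are recruited by homeodomain and other factors. Tle2 stood at 13.97, 47.6, 15.3 and 48.1 TPM (log2 ratio 1.70) and Tle6 at 3.33, 12.8, 3.099 and 15.3 TPM (1.67). Both Isl1-labelled libraries lay above both others in each gene, and the 2 values within each label were close. Of the other 4 members, Tle5, the short antagonist of the family, had a ratio of 0.32, Tle4 of 0.22, Tle3 of −0.06 and Tle1 of −0.36. Tle2 and Tle6 were thus the 2 of 6 past 2-fold, and of the compared members they had the lowest TPM in control.

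The GATA family and its cofactors lay below 0 in all 5 compared members (median −0.44, and −0.70 in the second background). Gata3, a zinc-finger factor required for auditory neuron development, stood at 38.5, 7.39, 49.9 and 9.43 TPM (log2 ratio −2.24). Both Isl1-labelled libraries lay below both others. Zfpm2 (also called FOG2), a cofactor that binds GATA factors, stood at 14.1, 7.42, 20.7 and 10.5 TPM (−0.84), and Zfpm1 at 18.9, 13.7, 17.7 and 12.2 TPM (−0.44). Gata2 stood at 16.3, 13.7, 22.5 and 13.5 TPM (−0.23), and Gata1, the erythroid member, at 1.59 TPM in control and 1.14 in Isl1CKO. One member of 5 passed 2-fold.

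Insm2, a zinc-finger factor, parted from its paralog Insm1. Insm2 stood at 4.09, 0.228, 12.6 and 0.429 TPM (log2 ratio −2.05) and was under 1 TPM in both Isl1-labelled libraries. Insm1 stood at 205, 252, 273 and 267 TPM (0.30). Msc (musculin), a bHLH repressor, was at 84.5, 33.1, 160.5 and 62.1 TPM (−1.33), below its partner library in both pairs. Pou3f3 stood at 46.1, 22.3, 21.8 and 13.2 TPM (−1.02) and Pou3f2 at 4.01, 1.96, 14.3 and 4.78 TPM (−0.76), whereas the other POU-homeodomain factors compared, such as Pou4f1 (0.36) and Pou4f3 (0.09), were under 2-fold. Of 11 POU genes 0 were higher and 1 lower.

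The Sox family and the Hes, Hey and Id family, which include progenitor factors, lay mainly below 0 without passing 2-fold. Of 15 Sox genes 13 lay below 0 (median −0.23, and −0.12 in the second background). The SoxB1 gene Sox2, a factor of neural and otic progenitors, stood at 72.2, 49.99, 64.2 and 31.6 TPM, Sox3 at 1.25, 0.277, 3.35 and 0.536 TPM and Sox21 at 10.3, 5.998, 5.84 and 2.29 TPM. Each of these was lower in the Isl1-labelled library of both pairs. Sox11, a factor of young neurons, stood at 301, 372, 297 and 328 TPM and was higher in both. Of 11 Hes, Hey and Id genes 10 lay below 0 (median −0.37, and −0.09 in the second background). The exception was Hes6 (258 TPM in control and 321 in Isl1CKO), which is known as a promoter of neuronal differentiation. Across all compared genes 43.6% lay above 0.

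**Figure D2:**
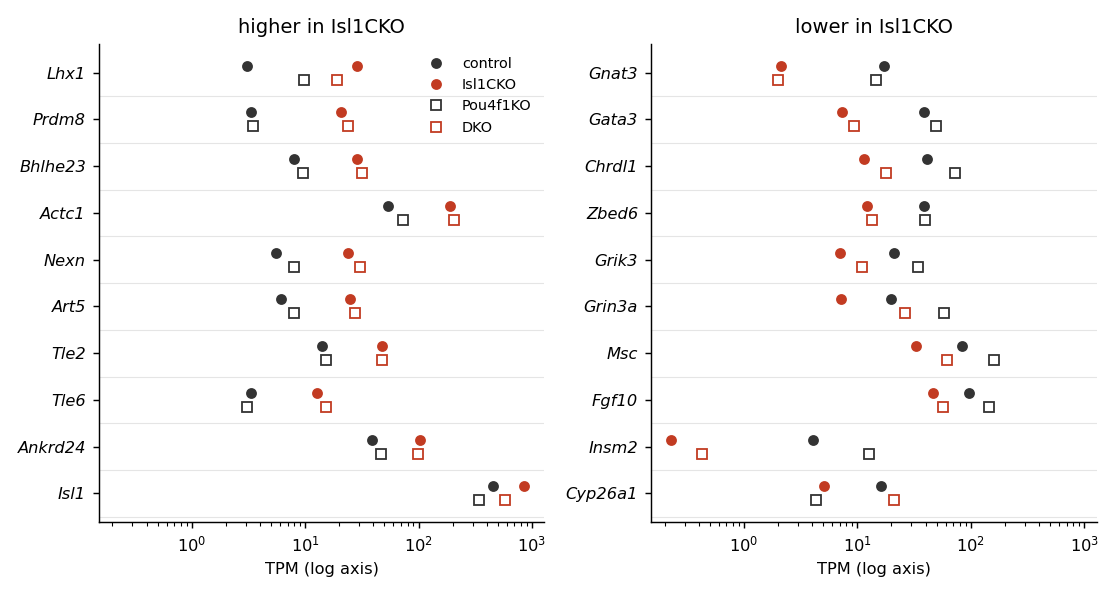
TPM (x axis, log scale) of 10 genes higher and 10 genes lower in Isl1CKO, in the control (filled black), Isl1CKO (filled red), Pou4f1KO (open black) and DKO (open red) libraries, 1 library each. Red lies to one side of black in both pairs for every gene shown except Cyp26a1, which is lower in Isl1CKO and higher in DKO.

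Several genes best known from striated muscle were higher. Actc1, cardiac alpha-actin, stood at 53.9, 191, 73.1 and 206 TPM (log2 ratio 1.81). Nexn, an actin-binding protein of the Z-disc, stood at 5.58, 23.9, 8.06 and 30.3 TPM (1.92). Sln, which encodes sarcolipin, an inhibitor of the sarcoplasmic calcium pump, had 0 listed in control, 5.09 TPM in Isl1CKO, 0.0913 in Pou4f1KO and 8.06 in DKO. The pump gene Atp2a1 stood at 11.9, 29.1, 16.1 and 33.5 TPM (1.22), and Chrng, the gamma subunit of the fetal muscle acetylcholine receptor, at 10.1, 24.3, 13.2 and 28.1 TPM (1.18). In each of these genes both Isl1-labelled libraries lay above both others.

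Other sarcomere genes differed in both directions. Myh3, the embryonic myosin heavy chain, was higher in both pairs at 1.08, 2.48, 1.14 and 2.74 TPM (0.74), as was Trim63, a muscle ubiquitin ligase, at 0.424, 2.18, 0.397 and 1.36 TPM (1.16). Mybpc1, a myosin-binding protein, lay the other way at 4.11, 0.988, 4.21 and 1.21 TPM (−1.36). The cardiac troponin gene Tnnt2 was at 1.02 TPM in control and 0.832 in Isl1CKO, the atrial light chain gene Myl7 at 1.06 TPM in control and 1.18 in Isl1CKO and the titin gene Ttn at 0.0325 TPM in control and 0.0241 in Isl1CKO. Myod1, which drives skeletal muscle formation, stood at 0.163, 0.555, 0.0741 and 0.807 TPM, so it was under 1 TPM throughout but above its partner library in both pairs. Myog, which acts with it, was under 1 TPM in all 4 libraries, and Nkx2-5, which does so in heart, stood at 0, 0.0796, 0.0682 and 0 TPM. Of 25 compared sarcomere genes 3 were higher and 1 lower (median 0.06), and of 15 striated muscle and heart markers 3 were higher (median −0.03). The 10 fixed muscle markers summed to 59.6 TPM in control and 198 in Isl1CKO, and Actc1 alone held most of both sums.

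Glutamate receptor genes held a few members past 2-fold in a family with a median near 0. Grik3, a kainate receptor subunit, stood at 21.2, 7.11, 34.6 and 11.1 TPM (log2 ratio −1.45). Grin3a, an NMDA receptor subunit that lowers calcium flow, stood at 19.9, 7.204, 58.4 and 26.1 TPM (−1.35), and Grin2d at 9.39, 4.72, 19.9 and 8.18 TPM (−0.86). All 3 were lower in both pairs. Among 19 glutamate receptor genes 2 were lower and 1, Grm8 (0.2198, 2.08, 0.593 and 0.242 TPM), was higher, with a median of −0.02. Grm8 was under 1 TPM in 3 of the 4 libraries.

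Nicotinic receptor genes lay mainly above 0: 7 of 9 did, with a median of 0.47 and 0.29 in the second background, and 1 past 2-fold. Chrna3, Chrna5 and Chrnb4, which encode subunits of ganglionic receptors and lie side by side on chromosome 9, had log2 ratios of 0.47, 0.63 and 0.66. Their flanking genes Psma4 and Ube2q2 had ratios of 0.02 and 0.13. Chrna9, known from hair cells, stood at 5.23, 9.11, 6.98 and 10.9 TPM. Voltage-gated sodium channel genes lay lower, with 1 of 11 past 2-fold (median −0.22, and −0.60 in the second background). That one was Scn10a, NaV1.8 of nociceptors (5.07, 1.56, 1.83 and 0.7301 TPM), and Scn9a, NaV1.7, stood at 66.8, 47.3, 40.97 and 14.6 TPM. None of 54 potassium channel genes and none of 19 calcium channel genes reached 2-fold, beside 0.599% higher and 0.633% lower among all compared genes.

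Single genes of other membrane proteins and of a calcium-binding protein were higher. Pcdh10, a protocadherin, stood at 20.1, 62.7, 38.5 and 87.9 TPM (log2 ratio 1.59) among 12 non-clustered protocadherins with 1 past 2-fold and a median of −0.22. None of 52 clustered protocadherin genes reached 2-fold (median 0.01). Pkd2l1, a cation channel known from neurons that contact cerebrospinal fluid, stood at 7.44, 23.2, 15.5 and 40.7 TPM (1.52), and Adgrb2, an adhesion receptor, at 7.76, 19.4, 12.7 and 27.7 TPM (1.22). Ntsr1, the neurotensin receptor, stood at 16.3, 38.7, 38.03 and 60.5 TPM (1.19). Calb2 (calretinin), a calcium-binding protein of auditory and vestibular neurons, stood at 3.199, 11.2, 6.09 and 10.3 TPM (1.54). All 5 were higher in the Isl1-labelled library of both pairs, with Ntsr1 and Calb2 under 2-fold in the second.

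Gnat3 had the lowest log2 ratio of the compared genes. It encodes gustducin, the taste receptor G protein subunit, and stood at 17.1, 2.12, 14.6 and 2.01 TPM (−2.54), alone past 2-fold among 12 G protein subunit genes. The neighbouring Gnai1 stood at 30.4 TPM in control and 40.1 in Isl1CKO. The list of taste and visceral (epibranchial) neuron genes had a median of 0.06, and −0.02 in the second background. Of its 12 compared members 0 were higher and 1 lower past 2-fold, and 8 lay above 0 and 4 below. Hmx1 and Tbx3, transcription factor genes on that list, were higher in both pairs, at 107, 161, 90.98 and 183 TPM and 50.7, 80.7, 69.7 and 102 TPM. Guidance receptor Robo3 was lower at 4.12, 1.43, 12.2 and 1.001 TPM (−1.07), 1 of 19 Slit, Robo and netrin genes past 2-fold (median −0.37). The netrin receptor gene Dcc lay higher in Isl1CKO but lower in DKO (2.59, 4.91, 7.92 and 3.098 TPM).

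Genes of secreted signals lay mainly below 0: 22 of 29 Wnt ligand and receptor genes, 19 of 25 FGF genes and 26 of 32 BMP and TGF-beta genes did. Fgf10, an otic and ganglion-derived growth factor, stood at 96.5, 46.7, 144 and 57.5 TPM (log2 ratio −1.03), and Fgf3 at 13.1, 8.23, 11.1 and 5.49 TPM (−0.61). Chrdl1, a secreted BMP antagonist, stood at 41.5, 11.4, 73.4 and 17.9 TPM (−1.77). Each was lower in both pairs. Wnt7b stood at 16.3, 7.09, 7.69 and 3.15 TPM (−1.09) and the Wnt receptor gene Fzd5 at 3.28, 0.837, 4.96 and 1.39 TPM (−1.22), whereas Fzd10 lay higher at 23.98, 41.9, 45.97 and 58.05 TPM (0.78). Past 2-fold, 3 Wnt genes were lower (family median −0.44), 1 FGF gene (−0.29) and 2 BMP and TGF-beta genes (−0.18), and none were higher. The other lower members, Rspo3 and Gdf1, were not lower in DKO than in Pou4f1KO. The median of the Wnt genes was −0.06 there.

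Enzymes that degrade retinoic acid, a vitamin A signal that patterns hindbrain and ear, parted by paralog. Cyp26a1 stood at 16.3, 5.07, 4.33 and 20.96 TPM and Cyp26c1, its neighbour on chromosome 19, at 19.7, 7.95, 2.16 and 20.8 TPM. Both were lowest in Pou4f1KO and high in control and DKO. Cyp26b1, on chromosome 6, stood at 6.401, 19.99, 12.3 and 28.99 TPM (log2 ratio 1.50) and was higher in both pairs. Aldh1a1, an enzyme that makes retinoic acid, was at 1.74, 0.1998, 6.88 and 0.104 TPM. Of 19 retinoic acid genes 1 was higher and 3 lower (median −0.24).

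Of the lists for the ganglion's own neuron types, the vestibular one had a median below 0 and the auditory one a median near 0. Of 10 vestibular ganglion genes 7 lay below 0 (median −0.39, and −0.83 in the second background), and Calb2 alone was past 2-fold, upward. Ntrk3 and Ntrk2, the receptors of the neurotrophins NT-3 and BDNF, stood at 14.7, 8.87, 14.7 and 7.07 TPM (log2 ratio −0.67) and 72.6, 55.2, 57.2 and 27.5 TPM (−0.39). The homeobox gene Hmx3, active in vestibular ear and ganglion, stood at 13.4, 8.304, 2.79 and 0.593 TPM (−0.63). These 3 were lower in the Isl1-labelled library of both pairs, and Hmx3 is also made by otic epithelium, whose markers were lower too. Tlx3, a homeobox gene of sensory neurons, lay slightly higher in both at 101, 124, 132 and 139.8 TPM. Of 15 spiral ganglion and auditory neuron genes 8 lay above 0 (median 0.02), with Calb2 past 2-fold upward and Gata3 downward. Slc17a7, which encodes the vesicular glutamate transporter VGLUT1, was higher in both pairs at 21.3, 38.6, 28.1 and 40.1 TPM (0.83), whereas Slc17a6, which encodes VGLUT2, stood at 50.98, 51.6, 20.6 and 17.8 TPM and was level in the first.

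Marker lists of otic epithelium, mesenchyme and endothelium had medians below 0 in Isl1CKO. Otic epithelium markers had a median of −0.54, with 24 of 26 below 0 and 3 past 2-fold: Fgf10, Gbx2 (6.66, 2.82, 2.45 and 0.792 TPM) and Otol1, an inner ear collagen (88.4, 35.4, 25.5 and 11.8 TPM). Claudins, the tight junction proteins of epithelia, had 15 of 16 below 0 with none past 2-fold (median −0.57), for example Cldn6 at 115, 68.3, 17.1 and 20.5 TPM. Mesenchyme markers had a median of −0.51, with 21 of 22 below 0 and Prrx2 past 2-fold, and endothelial markers a median of −0.40, with 15 of 15 below 0. In the second background the medians were −0.07, 0.09, 0.46 and 0.32. Their part in the lower Wnt, Sox and secreted-signal genes was not tested. Glial and neural crest markers lay at −0.13 and erythroid and macrophage markers at −0.18. The 6 smooth muscle and pericyte markers lay at 0.17 (−0.06 with FPKM), with 4 above 0. Pan-neuronal genes lay at 0.10, with 0 of 31 past 2-fold.

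**Figure D3:**
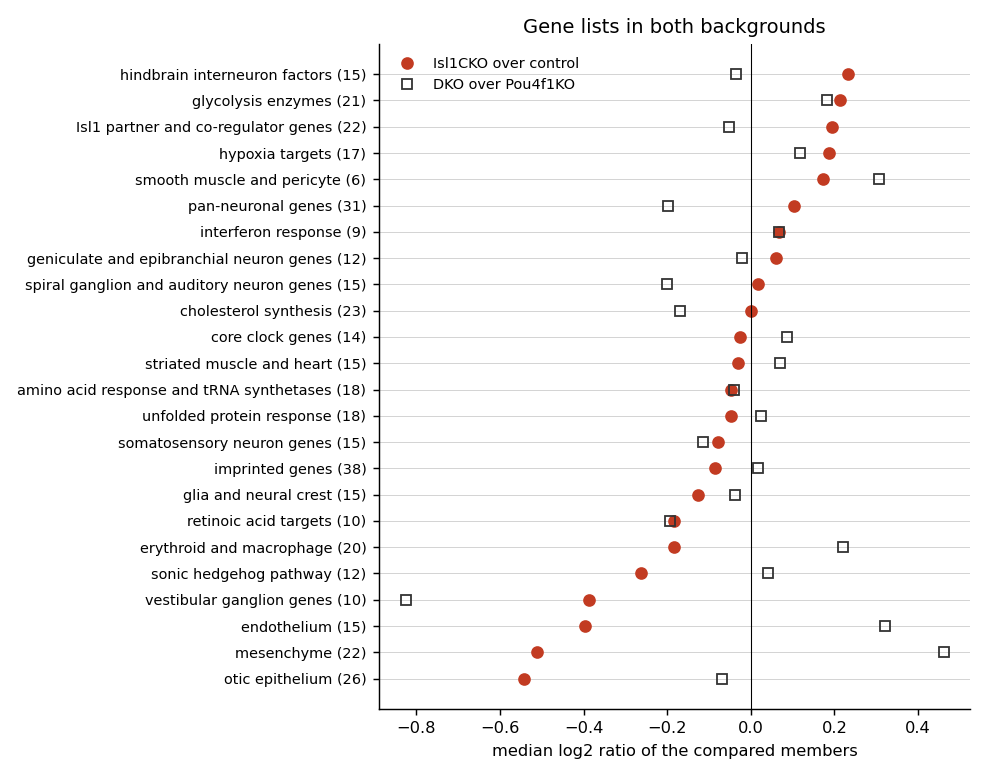
Median log2 ratio (x axis) of the compared members of each gene list (y axis, number of members in parentheses), for Isl1CKO over control (filled red) and DKO over Pou4f1KO (open black). Otic epithelium, mesenchyme and endothelium lie lowest for Isl1CKO, and the last 2 lie above 0 in the second comparison, whereas glycolysis and hypoxia lists lie above 0 in both.

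Glycolysis and hypoxia lists had medians slightly above 0 in both pairs, and nuclear-encoded respiratory chain genes did not in the first. Of 21 glycolysis genes 15 lay above 0 (median 0.21, and 0.18 in the second background) and none reached 2-fold. Ldha, lactate dehydrogenase, stood at 626, 896, 609 and 814 TPM, Pgk1 at 456, 607, 432 and 564 TPM, and the lactate exporter gene Slc16a3 at 52.2, 87.1, 57.5 and 81.2 TPM. Of 17 targets of the hypoxia response 16 lay above 0 (median 0.19 and 0.12), with Bnip3 at 91.7, 134, 103 and 131 TPM. How the embryos were handled before freezing is not stated in the labels. Ribosomal protein genes (80 compared, median −0.04), nuclear-encoded respiratory chain genes (87, −0.02), proteasome genes (35, 0.02) and solute carriers (231, −0.02) had no member past 2-fold. Among all compared genes 0.599% were higher and 0.633% lower. Among 364 Zfp zinc-finger genes 1 was higher and 1 lower.

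Largest differences in TPM belonged to abundant genes of several kinds, and all 10 in each direction fell short of 2-fold. Stmn1, a microtubule regulator of growing axons, stood at 5438, 7002, 6348 and 7549 TPM, and Tuba1a, the main neuronal alpha-tubulin, at 7496, 8175, 8762 and 8267 TPM. Isl1 ranked among them with a gain of 403 TPM, beside the glycolysis genes Eno1, Ldha and Pkm. On the other side Hsp90ab1 stood at 3899, 3535, 3914 and 3570.1 TPM, Uchl1 at 1227, 1060.3, 1388 and 1087 TPM and Alcam, an adhesion molecule of sensory axons, at 423, 287, 302 and 149 TPM. Embryonic globin genes such as Hbb-bh1 (1245, 975, 884 and 978 TPM) were lower in Isl1CKO.

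The share of genes past 2-fold differed by level and gene type. Of 514 genes with a mean of 300 TPM or more none did, and of 1528 genes between 100 and 300 TPM 1 did, Actc1. Between 30 and 100 TPM 7 of 4333 were higher and 6 lower. Below a mean of 1 TPM the figures were 15 and 10 of 308. A gene enters this class only where 1 library reached 1 TPM and the other did not, so the filter itself favours larger ratios here. MicroRNA and snoRNA rows held 29 of the 88 higher and 19 of the 93 lower genes, although they were 369 of the compared rows. In them 13% passed 2-fold, against 0.929% of other rows. At a matched mean of 1 to 10 TPM the shares were 12% and 2.0%. Such a row reports reads over the hairpin or snoRNA interval in a library for long RNA, not the mature small RNA, and 42 of the called rows were microRNA rows.

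Transcript length went with a small shift. In the longest of 10 equal groups of genes by GENCODE M21 transcript length (6764 bases or more) the median log2 ratio was −0.12. Of its 1438 genes 2 were higher (0.139%) and 11 lower (0.765%), beside 0.599% and 0.633% of all compared genes. In the next longest group the median was −0.06, and in the other groups it lay between −0.03 and −0.00. The second comparison had −0.17 and −0.07 in the same groups. Lower genes with long transcripts included Lnpep (11.7, 3.71, 11.3 and 4.59 TPM), Ptpn4 (9.64, 3.08, 10.1 and 3.41 TPM) and Ptar1 (7.87, 2.52, 8.86 and 2.002 TPM), each lower in both pairs. The medians by 10 groups of G and C content ran from −0.03 to −0.01, but the counts past 2-fold differed between groups. Of 1439 genes in group 1, the poorest in G and C, 6 were higher (0.417%) and 18 lower (1.25%). In group 9 the counts were 12 and 2 of 1438, and in group 10, the richest, 19 and 14 of 1439. RNA quality was not measured here, and its part was not tested.

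Chromosomal neighbours were compared next. Of 14595 adjacent pairs of compared genes, 14 had both members past 2-fold, 11 in the same direction and 3 in opposite directions. At least 1 member was past 2-fold in 343 pairs. Of the 14 pairs 5 were higher together and 6 lower together. The lower pairs include the run of chromosome Y genes and Alb with Afp, both described below. Cpt1b with Gm44502 and Lsp1 with Prr33 are overlapping rows, so the pairs are not all separate loci. The clearest higher cluster lay on chromosome 10. Tle2 (81575287 to 81590845, plus strand) and Tle6 (81590904 to 81600900, minus strand) end toward each other 59 bases apart. Ankrd24 (81628540 to 81647612, plus strand), which encodes an ankyrin repeat protein known from hair cell stereocilia, begins 27640 bases after Tle6 and stood at 39.04, 102, 46.9 and 98.2 TPM (log2 ratio 1.37). Between and beside them no gene within 100 kb reached 2-fold: BC025920 had a ratio of 0.53, Sirt6 of 0.24, Tle5 of 0.32, Gna11 of 0.04 and Gm10778 of −0.07. In the second background the 3 genes had ratios of 1.59, 1.99 and 1.05, and those between had 0.06 and 0.09. The cluster was picked out after its values were seen.

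**Figure D4:**
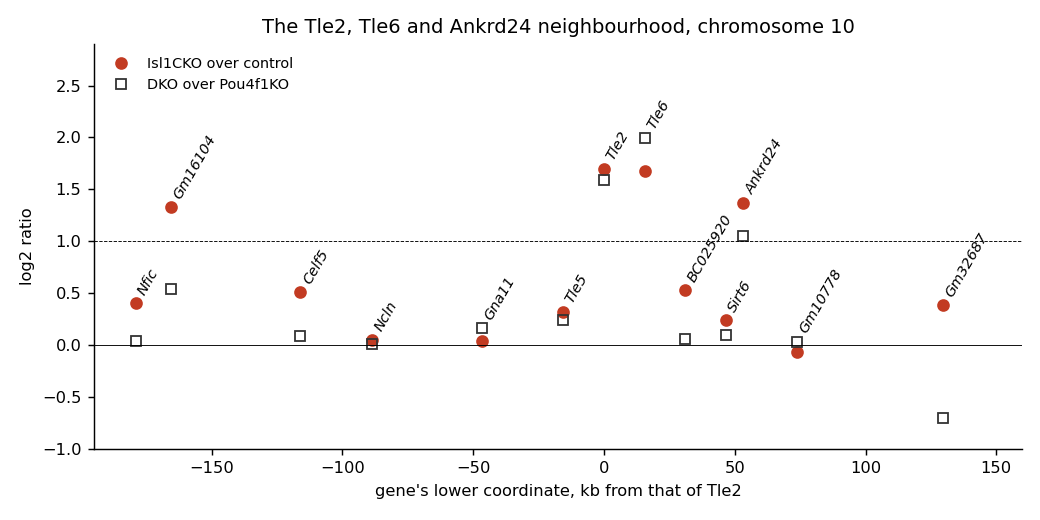
Log2 ratio (y axis) of compared genes by the distance of their lower coordinate from that of Tle2 in kb (x axis), for Isl1CKO over control (filled red) and DKO over Pou4f1KO (open black); the dashed line marks 2-fold. Tle2, Tle6 and Ankrd24 lie above the line in both comparisons with genes under it in between, and Gm16104 lies above it in the first alone.

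Pairs that lie back to back were among those past 2-fold together. Lhx1 (chromosome 11, 84517975 to 84525534, minus strand) and Lhx1os (84525660 to 84535831, plus strand) lie 126 bases apart, and Lhx1os stood at 3.01, 26.8, 8.52 and 17.9 TPM (log2 ratio 2.79). Further on, 1700109G15Rik had 0 listed in control and 2.91 TPM in Isl1CKO. The flanking genes Aatf and Mrm1 had ratios of −0.01 and −0.18. Gata3 (chromosome 2, 9857078 to 9878600, minus strand) and the divergent 4930412O13Rik (9881246 to 9886767, plus strand) lie 2646 bases apart. The latter stood at 4.48, 1.52, 4.63 and 1.59 TPM (−1.12), and the genes beyond, Celf2 and Taf3, had ratios of −0.08 and −0.18. Prdm8 had an overlapping row, A730035I17Rik, at 0.188, 1.197, 0.0812 and 1.499 TPM. Art5 and Art1, ADP-ribosyltransferase genes that lie back to back 1514 bases apart on chromosome 7, stood at 6.09, 25.1, 8.05 and 27.7 TPM and 4.45, 10.7, 6.17 and 9.18 TPM. In the other direction, Bhlhe23 and Mir124a-3, which also point away from each other on chromosome 2, 117140 bases apart, had ratios of 1.72 and −1.13.

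Lower neighbours were also found on chromosome Y. Kdm5d, Eif2s3y, Uty and Ddx3y lie in a row on chromosome Y and had log2 ratios of −1.74, −1.50, −1.44 and −1.39, with Xist at 0.61. In the second background they had ratios of −0.27, −0.07, −0.17 and −0.12. They held 4 of the 5 compared genes of that chromosome and 4 of the 93 lower genes. The embryos' sexes are not in the labels, and the part of sex in other genes was not tested. Alb and Afp, liver genes that adjoin on chromosome 5, were low in every library (2.797, 0.206, 0.171 and 0.766 TPM for Afp).

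Overlapping rows decided part of the calls. Of the 181 genes past 2-fold 54 overlapped another row on the same strand, beside 1203 of all 14688 compared genes. In 48 of the 54 the sum with at least 1 such partner was under 2-fold, though sums with other partners could stay past it. Of these 48, 29 were microRNA and 6 snoRNA rows. Zbed6, which lies inside Zc3h11a on chromosome 1, stood at 38.6, 12.1, 39.7 and 13.3 TPM (log2 ratio −1.60). Zc3h11a stood at 142, 142, 143 and 153 TPM, and the sum of both rows had a ratio of −0.22. Snurf stood at 24.3, 52.96, 54.1 and 44.1 TPM (1.09) and its overlapping partner Snrpn at 119, 94.7, 109 and 102 TPM, with a ratio of 0.05 for their sum. Cpt1b and Gm44502 on chromosome 15 had ratios of −1.16 and 2.41, and the sum of these rows had 0.63. Gdf1, Xntrpc and the microRNA row Mir3113 lost the call in the same way. Lhx1, Prdm8, Tle2, Tle6, Actc1, Nexn, Gata3, Gnat3, Grik3, Msc and Chrdl1 stayed past 2-fold when same-strand overlapping rows were summed.

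The same label in the Pou4f1KO background gave 97 genes at least 2-fold higher (0.66% of 14692 compared) and 168 at least 2-fold lower (1.14%). Of the 88 genes higher in Isl1CKO, 62 were also above 0 there and 27 at least 2-fold higher. Of the 93 lower, 61 were below 0 and 32 at least 2-fold lower. MicroRNA and snoRNA rows behaved unlike the others: of their 29 higher rows 11 had the same direction and 2 reached 2-fold, against 51 and 25 of the 59 other genes. On the lower side the counts were 9 and 1 of 19, against 52 and 31 of 74. Among other genes that reached 5 TPM in the higher library, 37 of 39 higher and 34 of 39 lower genes kept their direction. Over all compared rows, past 2-fold or not, the sign was the same in both pairs for 51.8% of microRNA and snoRNA rows. For all other rows that share was 56.5%. These counts and shares describe 4 libraries and were not tested.

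**Figure D5:**
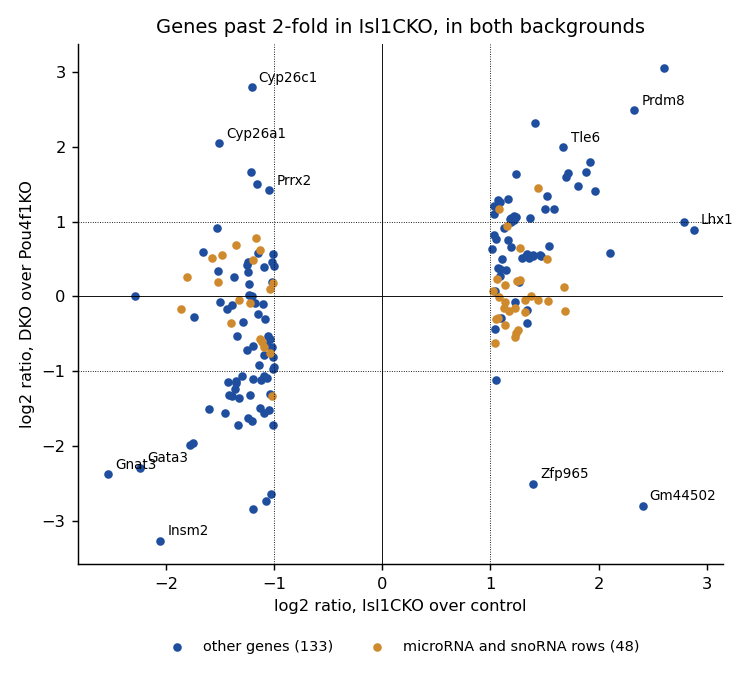
Log2 ratio of DKO over Pou4f1KO (y axis) against that of Isl1CKO over control (x axis) for the 181 genes past 2-fold in the latter, with 48 microRNA and snoRNA rows in orange and 133 other genes in blue; dotted lines mark 2-fold. Prdm8, Tle6, Gata3, Gnat3 and Insm2 lie near the rising diagonal, Cyp26a1, Cyp26c1, Prrx2, Zfp965 and Gm44502 lie in the opposite quadrants, and most orange points lie between the horizontal dotted lines.

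Smaller genes that shared direction and size in both pairs filled out the groups above. Higher in both were Medag (9.09, 21.6, 13.9 and 35.9 TPM), Tmem119 (20.005, 42.1, 20.2 and 44.2 TPM), Serpinb8 (11.1, 24.7, 10.2 and 25.7 TPM), Ak5, an adenylate kinase (3.04, 7.48, 3.86 and 10.9 TPM), and Tmie, a component of the hair cell mechanotransduction channel (6.89, 15.1, 8.76 and 21.6 TPM). Nfix, a nuclear factor I gene, stood at 0.969, 3.63, 0.524 and 3.73 TPM, and Ttr, the thyroid hormone carrier transthyretin, at 2.36, 7.92, 8.22 and 44.8 TPM. In these 7 genes both Isl1-labelled libraries exceeded their partners by 2-fold or more on the scale with 1 TPM added. Lower in both were Angpt1, the TIE2 ligand (4.66, 1.48, 12.9 and 5.47 TPM), Oprm1, the mu opioid receptor (2.69, 0.565, 3.75 and 0.539 TPM), Itgb8, an integrin (6.18, 2.47, 8.75 and 2.41 TPM), and Uts2b, a urotensin peptide (3.42, 0.318, 10.6 and 1.99 TPM). Ezr, the actin-membrane linker ezrin, stood at 103, 46.3, 86.7 and 45.5 TPM and missed 2-fold in the second pair. Myc, a growth factor-induced transcription factor, did so too, at 21.7, 8.93, 14.1 and 8.58 TPM.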

How the data were processed

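RNA from 4 samples, 1 library per genotype, was used; groups came from the genotype labels. Tools named in the submitters' processing notes were Trimmomatic, FastQC, HISAT2, SAMtools and StringTie, with build mm10; for versions, settings and annotation the labels say nothing. The deposited tables hold TPM, FPKM and coverage per gene row, per the file headers. TPM values as deposited by the authors sum to 1000000 in each library; deposited FPKM differs from TPM by 1 factor per library, and the authors' coverage signal is read depth without scaling between libraries.

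Rows of one symbol were summed, a pseudocount of 1 TPM was added and log2 ratios were taken for genes with at least 1 TPM in either library, with pandas 2.3.3. TPM is not a count, so no count test was run; the computation was tested on simulated data. Members, families, lists and alternatives were chosen with earlier results of these data known. Genes were named by rule: Isl1 and Pou4f1; the 24 largest ratios in each direction with 5 TPM in the higher library, an ordinary symbol and 1 row; the 10 largest TPM differences in each direction; up to 10 genes listed at 0 in 1 library and at 2 TPM or more in the other; up to 4 members of each family or list; and neighbour or overlapping pairs. Other named genes, among them the flanking genes, further list members and the weaker genes of the last paragraph, were chosen after their values were seen. RefSeq promoter windows and GENCODE M21 transcripts on the same build supplied sequences and lengths.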

Additional observations from a re-analysis of the deposited data

Results flagged for a closer look

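The Isl1 knockout label gave opposite directions in the 2 backgrounds for 8 genes, each past 2-fold in both pairs, and for 2 marker lists. With 1 library per genotype this difference between backgrounds was not tested. Cyp26a1 had a log2 ratio of −1.51 in Isl1CKO over control and 2.04 in DKO over Pou4f1KO, and its neighbour Cyp26c1 had −1.21 and 2.79. Prrx2, a mesenchymal homeobox gene, had −1.04 and 1.42 (12.8, 5.71, 6.01 and 17.7 TPM). The mesenchyme list had medians of −0.51 and 0.46, and the endothelium list of −0.40 and 0.32.

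The other 5 genes were at 7.55 TPM or less in every library. Cstdc5, a cystatin family gene, had −1.21 and 1.66 (3.11, 0.773, 0.5696 and 3.95 TPM). H4c11, a histone gene, had 1.06 and −1.12 (0.9696, 3.095, 3.96 and 1.28 TPM), and the zinc-finger gene Zfp965, listed at 0 in control and in DKO, had 1.39 and −2.50. Cpt1b had −1.16 and 1.50 and Gm44502 2.41 and −2.79; these rows overlap on the same strand, and their sum had a log2 ratio of 0.63 in the first pair and −0.24 in the second.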

How the results depend on the processing

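The numbers past 2-fold depend on how low values are treated. With a pseudocount of 0.1 in place of 1 they were 196 higher and 248 lower, with 5 they were 22 and 14, and with FPKM, whose values are smaller beside the same pseudocount, 36 and 25. Among genes that reached 5 TPM in either library they were 50 and 43. Median-of-ratios scaling gave 94 and 89, and pan-neuronal scaling, which moved the median of all genes to −0.12, gave 70 and 121. Summing overlapping same-strand rows to loci gave 60 and 73. Alternatives chosen after seeing the data gave 86 and 79 with ratios centred within 10 groups of transcript length, and 59 and 74 without microRNA and snoRNA rows. In the locus sums, which chain every row that overlaps, 15 genes past 2-fold changed sign, all to ratios near 0: Snurf (−0.13), DQ267101 (−0.12), Mir3076 (−0.0690), Mir6904 (−0.0675), 6330415B21Rik (−0.0667), Mir6999 (−0.0528), Mir1929 (−0.0416), Mir7019 (−0.0318), Mir6418 (0.00569), Cpt1b (0.0147), Snord110 (0.0428), Mir6387 (0.0674), Xntrpc (0.0697), Mir7647 (0.0818) and Gm45935 (0.10). Under the other 7 alternatives computed for single genes none of the genes past 2-fold changed sign. Under pan-neuronal scaling 18 of the genes past 2-fold lay just under it, with sizes of 0.93 or more, among them Neurod4 (0.95), Tmem119 (0.94) and Tmie (0.93), and Lmx1a passed it (−1.07). The medians of the sarcomere (−0.03), clustered protocadherin (−0.07), Zfp (−0.08) and proteasome (−0.08) families turned negative under it, and with FPKM the LIM-homeodomain median was 0.94. No family or list median of 0.2 or more in size changed sign under these 8 alternatives. No paired analysis was possible because each group is 1 library, and leaving out a library was not possible for the same reason. Depth limits genes near 1 TPM, which were covered 4.95 times in Isl1CKO.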

Other observations

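Rmrp, the RNA component of ribonuclease MRP, stood apart in a library outside the main pair. Its 4 levels were 4.96, 1.92, 38.5 and 5.35 TPM, highest in Pou4f1KO, and its log2 ratios were −1.03 in the first pair and −2.64 in the second. Gm16104, a noncoding gene on the opposite strand within Nfic on chromosome 10, was at 31.99, 81.8, 9.95 and 14.95 TPM (1.33), with both libraries of the first pair above both of the second. LOC106557447 was at 3.89 TPM in control and listed at 0 in the other 3 libraries.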
